A study of Mus musculus with 6 samples.

Results

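The olfactory epithelium, the nasal lining that holds the smell neurons, keeps a reserve of stem cells in its horizontal basal cells. These cells were described here as they are at rest, from the 3 libraries of uninjured mice among the 6 libraries of the series. The other 3 libraries came from mice exposed to methyl bromide, a gas that destroys the epithelium, and were not used. The animals were 12 weeks old and of the strain written B6;KRT5-CreER;Ai9 fl(Stop)TdTomato: a Cre recombinase that tamoxifen switches on is driven by the keratin 5 promoter and removes a stop in front of the red fluorescent protein TdTomato. Tamoxifen was given 2 weeks before the sort. Olfactory epithelium was dissected away from respiratory tissue, dissociated with enzymes and sorted on TdTomato alone, and libraries were made from polyA RNA with the Nextera XT kit. Every library pooled cells from several animals, and nothing in the labels says whether pools shared an animal, so the SD given below measures the spread between these 3 libraries and nothing wider. Because the label is permanent, cells that labelled cells gave rise to in the 2 weeks before the sort would carry it too, as would other keratin 5 cells of the nose that were left in the dissected tissue.

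As background, horizontal basal cells lie flat against the basal lamina, to which they are fixed by hemidesmosomes, and they rarely divide in the healthy tissue. The transcription factor p63, the product of Trp63, holds them in this dormant state. The everyday replacement of neurons is the work of another, dividing population, the globose basal cells. Horizontal basal cells begin to divide and rebuild all epithelial cell types after injury that destroys the supporting sustentacular cells above them.

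Levels are given as FPKM, fragments per transcript length and per library size, which the values are taken to be although the table names no unit, for libraries 1, 2 and 3 in that order, and ± is the SD over n = 3 libraries. The table held 8078 entries with a value. A percentile places an entry among these 8078 within 1 library, with 100 for the most abundant, so that the median of all entries is 50 by construction. The entries of a library summed to 188498 to 215604 FPKM with a median of 7.71 to 8.01 FPKM. Read depth is unknown. Between 165 and 208 entries per library stood at the lowest value, 0.001, whose meaning the sources do not give. On a log2 scale the libraries correlated pairwise across entries with Pearson's r of 0.888 to 0.907, over entries that are not independent replicates and share the library and its depth. Of the 100 most abundant entries of each library, 69 were common to all 3.

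The steepest part of the abundance curve belonged to very few entries. Mir703, an entry named for a microRNA, stood at 47968, 45862 and 54556 FPKM and was first in every library. It alone made up 22.03% to 25.4% of the summed level. Its annotated hairpin is only 109 bases long, and division by so short a length turns few reads into a high level. The share is therefore one of summed FPKM, not of reads or of RNA. The 10 most abundant entries together took 31.5 ± 1.42% of the sum, and 10.1 ± 0.452% once Mir703 was left out. On average 208 ± 37.3 entries per library exceeded 100 FPKM, and 3239 ± 50.5 exceeded 10 FPKM.

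**Figure D1:**
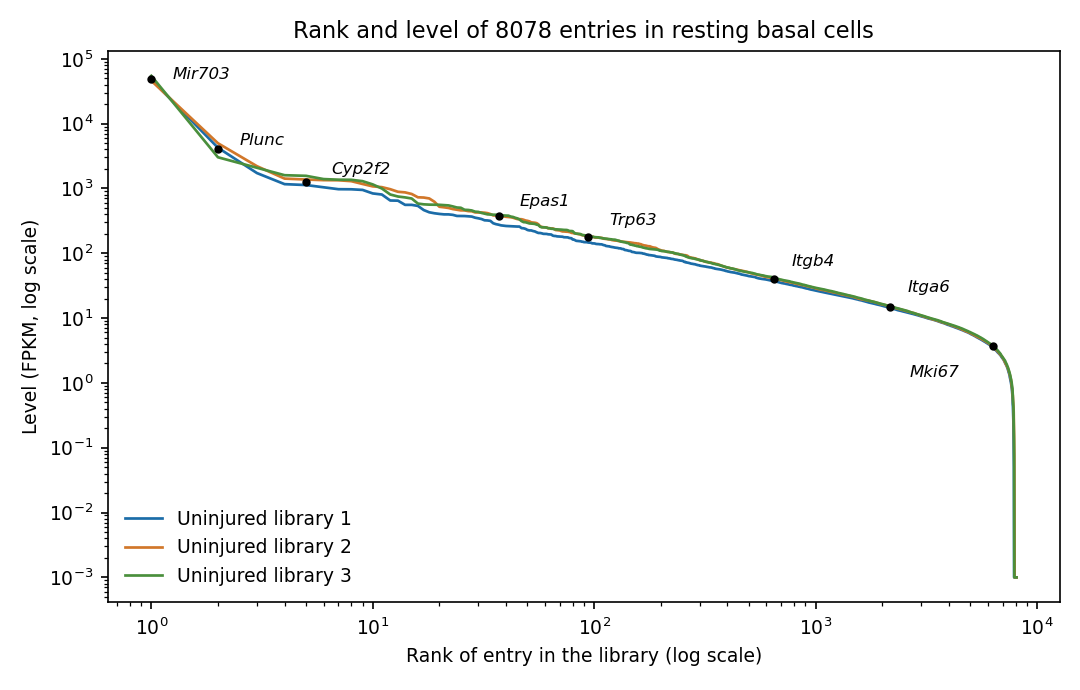
Level in FPKM (log axis) against rank within the library (log axis) for the 8078 entries, 1 line per uninjured library. Black points mark the mean level and the rank of the mean of 8 entries, from Mir703 at rank 1 and Trp63 at rank 94 down to Mki67 at rank 6342.

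Because Mir703 and a few other small RNA entries weigh so much on this top, their mature sequences are shown, from RefSeq on GRCm38.p6, with the seed (bases 2 to 8) in capitals. The files' own build is mm9.

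mmu-miR-703 (chr5:98475616-98475636, - strand): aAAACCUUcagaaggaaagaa
mmu-miR-1931 (chr10:93162879-93162900, + strand): aUGCAAGGgcuggugcgauggc
mmu-miR-1190 (chr12:101021692-101021713, - strand): uCAGCUGAgguuccccucuguc
mmu-miR-205-5p (chr1:193507503-193507524, - strand): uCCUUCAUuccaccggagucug
mmu-miR-205-3p (chr1:193507467-193507488, - strand): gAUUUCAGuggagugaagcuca

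These 5 mature sequences carry 5 different seeds. The table held 10 entries named for a single microRNA, all 10 with a sequence, and their 14 mature sequences had 14 different seeds. In the GENCODE annotation of GRCm38 the hairpin of Mir703 lies in an intron of Cfap299 on the opposite strand, Mir1931 in an intron of Cdk17 and Mir1190 in an intron of Ccdc88c on the same strand, and Mir205 in an exon of the long noncoding gene 4631405K08Rik. Nextera XT libraries do not mark the strand, so reads from a gene and from its antisense partner cannot be told apart, and these values are not levels of the mature microRNAs.

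Unlike Mir703, most small RNA entries differed wholly between libraries. Mir1931 was listed at 1.21, 0.001 and 2084 FPKM, Mir1190 at 969, 0.001 and 0.001 FPKM and the antisense entry Mir1-2as at 0.001, 1417 and 0.001 FPKM. Each was thus high in a single library, and Mir1931 and Mir1-2as are among the 25 highest means because of that library. Snora17, a small nucleolar RNA, was at 0.001, 279 and 0.001 FPKM. Of 19 single small RNA entries, 13 stood at the lowest value in at least 1 library. Mir205, named for a microRNA well known in p63-positive basal epithelium, was above the lowest value in all 3, at 10.4, 61.1 and 17.1 FPKM, with library 2 highest.

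Secreted defence proteins of the nasal lining came next. Plunc, an airway protein now called Bpifa1 with surfactant and antibacterial properties, was second in every library at 4245, 4978 and 3023 FPKM. Reg3g, a secreted lectin that kills gram-positive bacteria, stood at 1725, 1335 and 1294 FPKM, and Plunc exceeded it in all 3 libraries. Cyp2f2, a cytochrome P450 of airway secretory cells, was at 1127, 1341 and 1362 FPKM, and its range overlapped that of Reg3g. Rya3, now Bpifb3 and of the same protein family as Plunc, was at 176, 820.2 and 395 FPKM and varied more than the others. Secretory and gland cells are the textbook source of these proteins. Which cells these transcripts came from was not tested.

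Enzymes that handle toxic and oxidised compounds formed a further group of the 25 highest entries. The joined entry of 6 glutathione S-transferase mu genes, Gstm1 to Gstm4 with Gstm6 and Gstm7, stood at 1164, 2204 and 1598 FPKM, and the files do not split it among them. Gpx6, a glutathione peroxidase of the olfactory mucosa, was at 375, 1046 and 996 FPKM, and Prdx6, a peroxiredoxin, was at 376, 426 and 503 FPKM. Sod1, the cytosolic superoxide dismutase, was at 151, 1075 and 1563 FPKM. Sod1 thus held ranks 88, 10 and 5, whereas Prdx6 held ranks 24, 29 and 25. Fth1, the iron-storing ferritin heavy chain, was steadier, at 973, 1371 and 1359 FPKM.

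The rest of the 25 were mostly genes that every cell uses. Tmsb4x, which binds actin monomers, was at 1041, 1171 and 1393 FPKM, and Eef1a1, a translation elongation factor, at 651, 729 and 806 FPKM. Ribosomal protein transcripts were represented by Rplp1 at 391, 723 and 547 FPKM and Rps9 at 371, 511 and 559 FPKM, and 13 of the 100 most abundant entries were of this class. Atp5b, a subunit of the mitochondrial ATP synthase, was at 428, 415 and 468 FPKM, and Lars2, the mitochondrial leucyl-tRNA synthetase, at 404, 334 and 698 FPKM. Malat1, a nuclear long noncoding RNA, was at 948, 972 and 584 FPKM, with library 3 the lowest. Calm2, a calmodulin gene, was at 805, 479.9 and 562 FPKM.

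Membrane proteins also reached this top. Slc6a6, the taurine transporter, was at 557, 622 and 528 FPKM and Fxyd3, a regulator of the sodium pump, at 262, 700.1 and 568 FPKM. The joined entry of Ifitm2 and Ifitm3, membrane proteins that hinder virus entry, was at 647, 887 and 1153 FPKM. Gm5148, a predicted protein-coding gene, was at 837, 1294 and 333 FPKM, a spread wider than that of its neighbours in rank. Of the 25, 23 were within the top 100 of every library, and the remaining entries were Mir1931 and Mir1-2as. How the authors handled reads that match several places is not given in the sources, so levels of genes with many near-identical copies, such as Eef1a1, Fth1 and the ribosomal proteins, are uncertain.

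Promoters of the most abundant entries were compared with all promoters of listed entries for a TATA box, searched as TATAAA on both strands from 250 bases before to 50 bases after each start in RefSeq, GRCm38.p6. It was found in 27.1% of 85 promoters of the 100 most abundant entries, for which 64 of 91 single entries matched, against 7.54% of 8195 promoters over all entries and 13.6% of the 32851 promoters in the RefSeq table. Plunc and Reg3g are shown because they have the highest means of the single protein-coding genes, as the 200 bases before the start, 5′ to 3′ on the gene's strand, with TATAAA and CCAAT on either strand in capitals.

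Plunc (chr2:154142680-154142879, + strand): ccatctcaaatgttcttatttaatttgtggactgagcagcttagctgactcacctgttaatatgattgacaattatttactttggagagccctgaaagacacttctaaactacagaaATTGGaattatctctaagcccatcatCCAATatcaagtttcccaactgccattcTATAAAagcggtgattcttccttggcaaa
Reg3g (chr6:78468875-78469074, - strand): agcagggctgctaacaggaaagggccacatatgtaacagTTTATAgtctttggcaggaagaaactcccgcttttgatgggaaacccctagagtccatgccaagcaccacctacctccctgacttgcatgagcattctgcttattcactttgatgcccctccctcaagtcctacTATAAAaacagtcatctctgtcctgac

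The TATA match nearest the start began 29 bases before it in Plunc and 27 bases before it in Reg3g. A match is a description of the letters and was not tested for a role.

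The sorted cells were described with a list of 27 genes of horizontal basal cells. Of these, 25 symbols had a row, in 24 entries because Krt14 and Krt15 share 1, and Krt5 is not analysed here. The list's median percentile was 89.3, 89.5 and 88.9. Of the 24 entries, 21 (87.5%) lay above the library median in all 3 libraries and 11 (45.8%) lay in the top 10% in all 3, against 41.3% and 7.56% of all 8078 entries. Markers of the labelled cell type thus ranked high in every library. Averaged over libraries, the median percentile was 87.4 for sustentacular and 85.1 for respiratory secretory entries, against 89.2 for this list. Of 12 sustentacular entries 50% lay in the top 10% in all 3 libraries, and of 11 respiratory secretory entries 36.4%. A high median therefore does not tell these cell types apart. Transcripts of other cells that also ranked high are described further on.

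The keratin entry led the list. It joins Krt13, Krt14, Krt15, Krt16, Krt17, Krt19 and Krt42, all type I keratins, and stood at 537, 521 and 507 FPKM, the SD of 14.8 being small beside the mean of 522. Krt14 and Krt15 are basal cell keratins, but the value cannot be assigned to either. Trp63, which encodes p63, was at 187, 194 and 157 FPKM and held ranks 65, 87 and 129. Hey1, a repressor that Notch signalling induces, was at 104, 123 and 98.3 FPKM, and Snai2, a repressor of epithelial adhesion genes, at 54.5, 58.6 and 49 FPKM. These transcripts lay in the top 10% of every library.

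Surface and secreted markers spread over a wider range. Aqp3, a water and glycerol channel of basal epithelia, was at 198, 319.9 and 283 FPKM, above Trp63 in all 3 libraries. Perp, a p63 target needed for desmosomes, was at 141, 869 and 166 FPKM, so that its mean of 392 rests on library 2. Igfbp2 and Igfbp5, which bind insulin-like growth factors, were at 86.3, 149 and 176 FPKM and 88.2, 93.7 and 87.4 FPKM, and the second was the steadier. Icam1, the adhesion molecule often used to sort horizontal basal cells, was at 15.9, 13.7 and 15.8 FPKM. Dlk2, a Notch-type transmembrane protein, was at 19.9, 24.7 and 29.5 FPKM and Bgn, the proteoglycan biglycan, at 8.02, 10.1 and 15.8 FPKM.

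Developmental regulators on the list were moderate in level. The related homeobox genes Meis2 and Meis1 were at 28.5, 36 and 35 FPKM and 18.8, 30.5 and 17 FPKM, and Meis2 was higher in all 3 libraries although the ranges overlapped. Pax6, the paired box factor of nose and eye, was at 31.1, 17.9 and 21.4 FPKM, and Sox9, also known from Bowman gland, at 13.1, 13.3 and 13.2 FPKM with the smallest spread of the list.

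The lower end of the list held 4 entries under 9 FPKM in mean. Cd44, a hyaluronan receptor, was at 9.97, 8.57 and 8.19 FPKM and still above the median of every library. Ngfr, the p75 neurotrophin receptor, was at 6.03, 6.55 and 6.99 FPKM, Cav1, the caveolae protein, at 4.42, 3.48 and 5.41 FPKM and Lmo1, a LIM domain cofactor, at 1.01, 3.01 and 2.53 FPKM. Ngfr, Cav1 and Lmo1 were the 3 entries below the library median in every library.

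**Figure D2:**
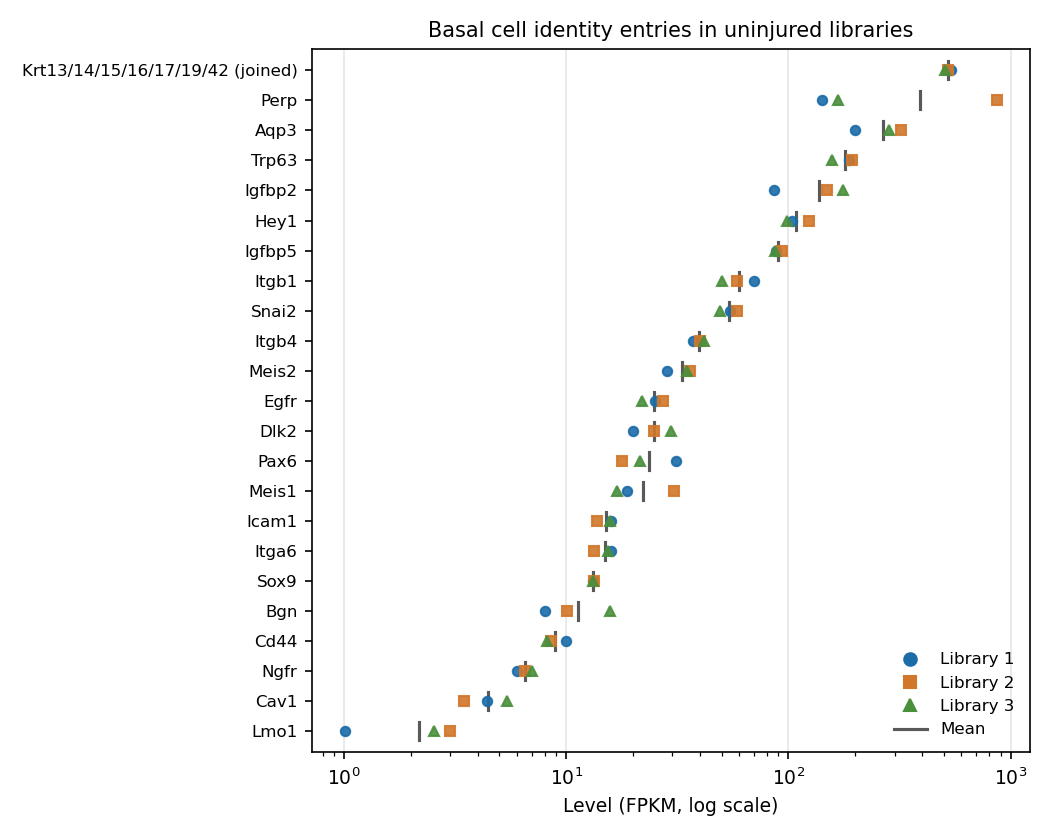
Level in FPKM (log axis) of 23 of the 24 basal cell identity entries, ordered by mean. Points are the 3 uninjured libraries and the vertical bar is their mean. The joined keratin entry leads at 522 FPKM, Perp shows library 2 far above the others, and Lmo1 is lowest at 2.18 FPKM.

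Transcription factors as a class ranked slightly above the middle. Their list had 284 entries with a median percentile of 59.6, 58.3 and 57.6, and 33 of them (11.6%) were in the top 10% of all 3 libraries, against 7.56% of all entries. Epas1, which encodes the hypoxia-inducible factor HIF-2 alpha, had the highest mean, at 337, 426 and 352 FPKM. Fos, an immediate early factor, was at 464, 243 and 276 FPKM, and Egr1, another, at 281, 259.7 and 251 FPKM. Of these, only Fos changed places between libraries: it was above Epas1 in library 1 only and below Egr1 in library 2 only. Epas1 exceeded Egr1 in all 3 libraries without overlap. Trp63 was next, and Egr1 exceeded it in all 3 libraries without overlap of their ranges.

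Below Trp63 several factors could not be ordered. Tsc22d1, a leucine zipper protein induced by TGF-beta, was at 180.0, 158 and 187 FPKM, and Trp63 exceeded it in 2 of 3 libraries. Eya1, a phosphatase that acts as a transcriptional cofactor, was at 96.8, 105 and 127 FPKM, lower than Tsc22d1 in all 3 and overlapping with Hey1. Otx2, a homeobox factor of head and nose development, was at 111, 83.8 and 103 FPKM, and its range overlapped that of Hey1. Ybx1, a Y-box protein that binds RNA and DNA, was at 67.7, 215 and 80.9 FPKM, with library 2 alone above 100.

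The remaining factors named here belong to daily rhythm, stress and Notch signalling. Nr1d1, the clock repressor REV-ERB alpha, was at 82.8, 93.4 and 119.6 FPKM, and Bhlhe40, a repressor tied to the clock and to hypoxia, at 79.5, 57 and 65.2 FPKM. Nfe2l2, which encodes NRF2, the activator of detoxifying genes, was at 84.7, 86.7 and 122 FPKM. Hes1, the classic Notch target, was at 88.3, 98.6 and 74.1 FPKM. Hey1 stood above Hes1 in each library, by ratios of 1.17, 1.25 and 1.33, although the ranges of the 2 genes overlapped.

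A few family pairs were set side by side after their levels had been seen. Trp63 exceeded its relative Trp53, the tumour suppressor p53, by 9.05, 8.9 and 5.63-fold. Epas1 exceeded Hif1a, the other hypoxia-inducible alpha subunit, by 6.67, 7.82 and 5.49-fold. Otx2 exceeded Otx1 by 3.5, 2.25 and 3.03-fold. In each of these pairs the lowest library of the first gene lay above the highest library of the second.

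Immediate early genes are induced within minutes by many stimuli, and the cells had been dissociated with warm enzymes before the sort. The list of 16 such and heat shock entries had a median percentile of 97.1, 94 and 93.1. Of the 16, 10 (62.5%) lay in the top 10% of all 3 libraries, against 7.56% of all 8078 entries. Fos and Egr1 are on it. Library 1 was the highest library for 11 of the 16, against 32.3% of the 8027 entries above the lowest value in at least 1 library, which are all entries in such shares below. The part of the dissociation in the levels of Fos and Egr1 was not tested.

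The cell surface receptor list, which also holds some receptors that act inside the cell, lay at the middle of the ranking. The 152 entries had a median percentile of 50.8, 49.99 and 49.2. In the top 10% of all 3 libraries were 7 of them (4.61%), against 7.56% of all 8078 entries. Cd9, a tetraspanin that organises other membrane proteins, led with 154, 116 and 151 FPKM. Pgrmc1, a haem-binding membrane protein, followed at 119, 97.3 and 122 FPKM and was below Cd9 in each library, by ratios of 1.3, 1.19 and 1.24, although the ranges overlapped. Il6st, the gp130 subunit shared by receptors of the interleukin 6 family, was at 95, 93.3 and 121 FPKM.

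From the next receptor on, levels were lower. F2r, the thrombin receptor PAR1, was at 59.6, 56.9 and 54.9 FPKM, and Il6st exceeded it in all 3 libraries without overlap. Cd47, the ligand that restrains phagocytes, was at 54.7, 47.7 and 59.7 FPKM and Adipor1, an adiponectin receptor, at 43.7, 42.7 and 60.7 FPKM. The ranges of F2r, Cd47 and Adipor1 overlapped. M6pr and Kdelr2 sort proteins inside the cell, to lysosomes and back to the endoplasmic reticulum, and stood at 47.8, 39.7 and 43.3 FPKM and 30.6, 40.5 and 37.9 FPKM. Scarb2, a lysosomal receptor, was at 22.2, 25 and 27.3 FPKM.

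Receptors for outside signals filled the rest. Gabrp, the pi subunit of GABA-A receptors, which also stands on the list of respiratory secretory cells, was at 37.1, 34 and 28.2 FPKM. Cd36, a scavenger and fatty acid receptor, was at 31.6, 32.4 and 32.6 FPKM, nearly the same in each library. Ifnar2, of the type I interferon receptor, was at 25.7, 29.7 and 38.4 FPKM, and Cxcr7, which removes the chemokine CXCL12, was at 30.6, 33.9 and 27.8 FPKM. Fgfr2, a fibroblast growth factor receptor, was at 21.6, 39.3 and 22.7 FPKM with library 2 the highest.

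**Figure D3:**
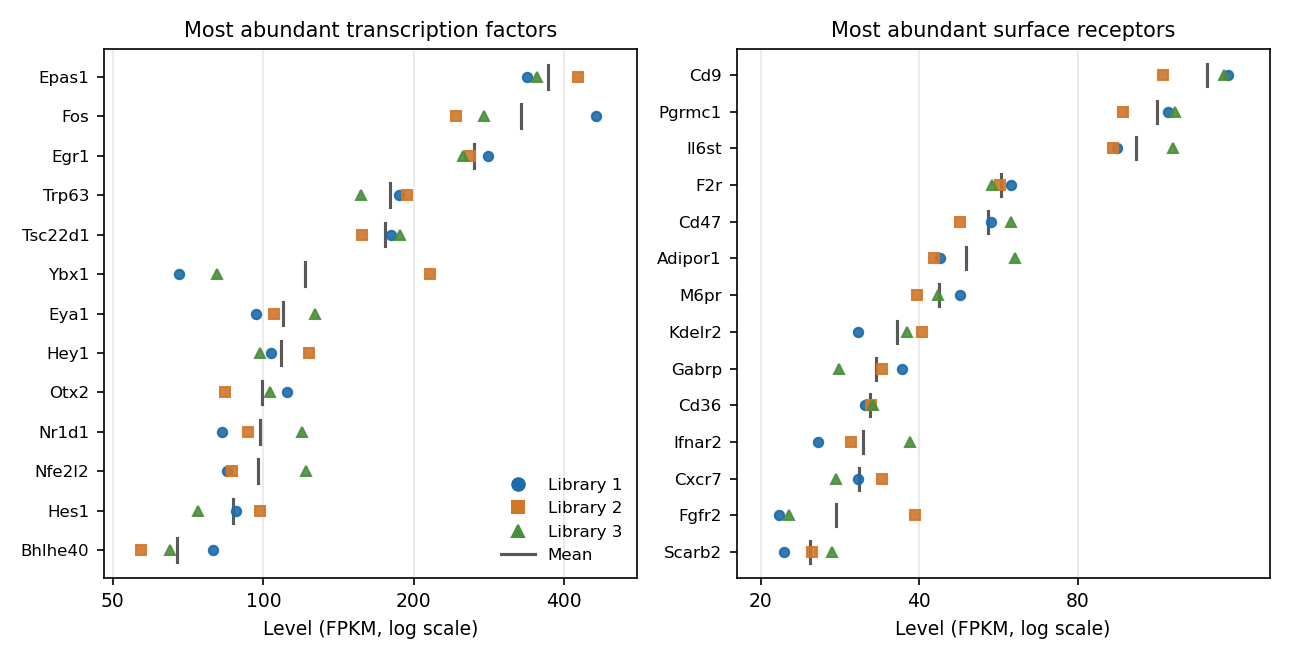
Level in FPKM (log axes) of 13 of the 14 most abundant transcription factors (left) and the 14 most abundant entries of the cell surface receptor list (right). Some of the latter, such as M6pr and Kdelr2, act inside the cell. Points are the 3 uninjured libraries and bars their mean. Epas1, Fos and Egr1 lead the factors, and the range of Fos overlaps those of Epas1 and Egr1. Cd9, Pgrmc1 and Il6st lead the receptors, above a step down to F2r at 57.1 FPKM.

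Of the signalling pathways, the EGF receptor is known to act in the growth of basal cells. Egfr itself was at 25, 27.2 and 22 FPKM, just below the 14 receptors above. Errfi1, which binds and blocks the receptor, was at 63.8, 25.5 and 35.9 FPKM, above Egfr in libraries 1 and 3. The Sprouty genes Spry2 and Spry1, feedback inhibitors of growth factor signalling, were at 33, 35 and 36.4 FPKM and 25.6, 21.7 and 26.2 FPKM. Spry2 exceeded Egfr in all 3 libraries without overlap. The 20 entries of the EGF family list had a median percentile of 53.9, 44.7 and 39.3. Of the list's ligands, inspected after their values were seen, Tgfa stood at 5.48, 5.01 and 5.24 FPKM, Hbegf at 4.28, 3.49 and 3.21 FPKM and Areg at 0.539, 0.547 and 0.294 FPKM.

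In the Notch pathway the target genes were far above the receptors. Hey1 and Hes1 have been given. Ncstn, a subunit of the gamma-secretase that cuts Notch, was at 26.8, 26.2 and 31.8 FPKM and Jag2, a Notch ligand, at 21.8, 21.4 and 37.3 FPKM. The receptors Notch1 and Notch2, looked at after their values were seen, were at 10.9, 12.4 and 11.4 FPKM and 10.7, 10.7 and 9.3 FPKM. Jag2 exceeded the ligand Jag1 by 2.92, 3.68 and 4.78-fold. The median percentile of the 17 entries was 63.6, 68 and 60.2.

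Of the 4 pathways the Wnt list had the highest median percentile in libraries 1 and 3, with 70.5, 67.8 and 69 over 22 entries. Of these, 18 (81.8%) lay above the median of every library, against 41.3% of all 8078 entries. Ctnnb1, which encodes beta-catenin, a protein of both Wnt signalling and cell junctions, was at 125, 122 and 112 FPKM. Sfrp1, a secreted Wnt inhibitor, was at 108, 109.8 and 106 FPKM, and its SD of 2.17 was the smallest of these. Wls, needed to secrete Wnt proteins, was at 102, 80.8 and 84.4 FPKM, and Dkk3, a Dickkopf family protein, at 39.5, 40.3 and 48.3 FPKM.

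For TGF-beta and BMP the median percentile was 55.2, 55.1 and 59.3 over 27 entries. Id1 and Id2, BMP-responsive inhibitors of bHLH factors, were at 61.3, 50.9 and 57.6 FPKM and 36.1, 28.1 and 32.4 FPKM, with Id1 higher by 1.7, 1.81 and 1.78-fold. The receptors Bmpr1a and Acvr2a were at 24.7, 21.4 and 23.9 FPKM and 24.9, 21.7 and 21.3 FPKM. Their ranges overlapped.

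Adhesion genes were examined in 6 lists, which held 134 different entries with a median percentile of 63.2, 65.3 and 61.7. The desmosome list ranked highest, with 83.2, 79.6 and 79.6 over 9 entries, and the tight and gap junction list lowest, with 35.9, 44.7 and 35.9 over 22. The integrin list of 26 entries lay at 70.4, 68.8 and 73.7, the adherens junction list of 17 at 61.7, 66.2 and 66.7, and the other adhesion molecules, 40 entries, at 72.8, 70.9 and 74. The hemidesmosome and basement membrane list of 23 lay at 59, 45 and 50.9.

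Integrins tie basal cells to the lamina. Itgb1, the beta subunit that most integrins share, was at 70.2, 58.4 and 50.4 FPKM. Itgb4, the beta subunit found in hemidesmosomes, was at 37.2, 40.02 and 41.7 FPKM, and its only partner, Itga6, was at 15.9, 13.4 and 15.5 FPKM. Itgb4 exceeded Itga6 by 2.34, 3.0 and 2.7-fold and was lower than Itgb1 in all 3 libraries. Of cytoplasmic integrin partners, Tns4, a tensin of epithelial cells, was at 50.5, 101 and 59.7 FPKM with library 2 highest, Parva, which links integrins to actin, at 43.9, 42.2 and 42.8 FPKM and Tns3 at 34.7, 27.3 and 22 FPKM.

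The inner plaque and matrix side of the hemidesmosome were abundant too. Dst, which encodes the plaque protein BPAG1 among its isoforms, was at 61.5, 95.9 and 128 FPKM, and Col17a1, the transmembrane collagen of hemidesmosomes, at 41.5, 49.6 and 96.4 FPKM. In both, library 3 was the highest. Lamb3, the laminin beta chain found in laminin 332, was at 54.7, 46.4 and 48.5 FPKM. Sparc, a matrix glycoprotein that also marks fibroblasts, was at 83.2, 129 and 99.1 FPKM.

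Among desmosome genes Perp has been given. Dsp, the desmoplakin that anchors keratin filaments, was at 62.6, 76.9 and 74.1 FPKM, and Jup, plakoglobin, at 24.3, 31.6 and 39 FPKM. Dsp exceeded Jup by 2.57, 2.43 and 1.9-fold without overlap. Pkp4, an armadillo protein of junctions, was at 37.6, 38.3 and 26.4 FPKM and Dsg2, a desmosomal cadherin, at 21.4, 19.2 and 19.5 FPKM.

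Adherens junctions were led by Ctnnb1. Epcam, an epithelial adhesion protein, was at 51.4, 98.1 and 112 FPKM and Ctnna1, alpha-catenin, at 47, 62 and 103 FPKM, and both were lowest in library 1 and highest in library 3. Cdh1, E-cadherin, was at 57.4, 54.5 and 52.6 FPKM and Ctnnd1, p120 catenin, at 43.4, 42.2 and 44.4 FPKM. Ctnnb1 exceeded Cdh1 by 2.18, 2.24 and 2.13-fold without overlap. Cdh1 exceeded N-cadherin, Cdh2, by 2.42, 1.93 and 1.82-fold without overlap, a pair picked after its levels had been seen.

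Tight and gap junction genes were lower. F11r, the adhesion molecule JAM-A, was at 22.7, 39.3 and 41.9 FPKM and Pard3, a polarity protein, at 44.5, 30.9 and 21 FPKM, in opposite order over the libraries. Gja1, the gap junction protein connexin 43, was at 33.8, 31.2 and 27.7 FPKM, Cxadr, the coxsackievirus and adenovirus receptor, at 33.2, 27.7 and 29 FPKM and Tjp1, the plaque protein ZO-1, at 14, 13.3 and 16.8 FPKM. No entry of this list lay in the top 10% of all 3 libraries, against 7.56% of all 8078 entries.

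Other adhesion molecules reached higher. Cyr61, a matricellular integrin ligand that is also an immediate early gene, was at 244, 188 and 170.3 FPKM. Bcam, a laminin receptor, was at 84.9, 107 and 230.0 FPKM, with library 3 the highest. Cd164, a sialomucin, was at 148, 134 and 135 FPKM and Sdc4, a heparan sulfate proteoglycan of focal adhesions, at 81.6, 108 and 84.4 FPKM. Cd24a, a small glycosylated surface protein, was at 79.5, 60.1 and 101 FPKM.

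Genes of dividing cells stood near the bottom of the ranking. The DNA replication list of 36 entries had a median percentile of 15.6, 29.6 and 23.9, and the list of G2 and mitosis, 30 entries, 14.5, 12.6 and 11.3. Of the 66 entries of both, 54 (81.8%) lay below the median of every library and 33 (50%) in the bottom 25% of every library, against 40.7% and 16.8% of all entries. Not every member was low, as 8 of the 66 (12.1%) lay above the median in all 3 libraries, against 41.3% of all 8078 entries.

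Single proliferation markers were low in every library. Mki67, the antigen of cycling cells, was at 3.66, 3.89 and 3.58 FPKM, and Trp63 exceeded it by 51.2, 49.7 and 43.7-fold. Top2a, the topoisomerase that untangles chromosomes, was at 4.97, 4.32 and 4.47 FPKM and Ube2c, which marks mitotic cyclins for destruction, at 4.64, 6.01 and 4.65 FPKM. Cdk1, the mitotic kinase, was at 1.87, 0.79 and 1.12 FPKM and its partner cyclin Ccnb1 at 1.25, 0.801 and 0.859 FPKM. Mcm2, a subunit of the replicative helicase, was at 1.35, 2.62 and 2.77 FPKM. All of these but Top2a and Ube2c were in the bottom 25% by mean percentile.

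Other entries of these lists were higher. H2afz, the histone variant H2A.Z, was at 36.8, 41.7 and 34.2 FPKM, Cks1b, a small subunit of cyclin-dependent kinases, at 12.2, 14.3 and 16.7 FPKM and Smc4, a condensin subunit, at 15.4, 10.7 and 11.5 FPKM. Bub3, of the spindle checkpoint, was at 11.1, 11.6 and 11.9 FPKM, and Hmgb2, a chromatin protein, at 4.53, 17.1 and 3.88 FPKM with library 2 highest. In the replication list Dut, which removes dUTP, was at 8.77, 22.3 and 20.1 FPKM, Rpa3, of the single-strand binding complex, at 12.8, 11.2 and 12.5 FPKM and Slbp, which binds histone messages, at 11.5, 12.2 and 10.7 FPKM. Mcm4 was at 7.81, 15.9 and 6.89 FPKM, Gins4 at 7.87, 10.2 and 11 FPKM and the mismatch repair gene Msh6 at 7.9, 7.47 and 7.68 FPKM.

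Promoters of the G2 and mitosis genes are shown because many of them share short elements known from promoters of such genes. The elements are the cell cycle homology region CHR, searched as TTTGAA, and the CCAAT box. Both were searched on either strand in the same window of 300 bases. TTTGAA was found in 22 of 29 promoters (75.9%), for which 26 of 30 entries matched, against 11.7% of promoters over all entries, and CCAAT in 27 of 29 (93.1%) against 37.6%. The E2F element GCGGGAA was in 41.9% of 31 promoters of the replication list, for which 28 of 36 entries matched, against 8.27%. In the following 200 bases before the start, from RefSeq on GRCm38.p6, TTTGAA and CCAAT on either strand are in capitals.

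Mki67 (chr7:135716380-135716579, - strand): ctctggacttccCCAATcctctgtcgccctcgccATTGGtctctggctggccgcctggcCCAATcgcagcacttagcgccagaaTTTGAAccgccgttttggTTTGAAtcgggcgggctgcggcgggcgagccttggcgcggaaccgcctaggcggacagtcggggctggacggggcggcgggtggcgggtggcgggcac
Top2a (chr11:99024190-99024389, - strand): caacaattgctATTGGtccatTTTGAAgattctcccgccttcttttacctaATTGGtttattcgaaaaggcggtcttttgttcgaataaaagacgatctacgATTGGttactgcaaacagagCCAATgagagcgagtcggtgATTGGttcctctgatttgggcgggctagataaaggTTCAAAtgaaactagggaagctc
Ube2c (chr2:164769729-164769928, + strand): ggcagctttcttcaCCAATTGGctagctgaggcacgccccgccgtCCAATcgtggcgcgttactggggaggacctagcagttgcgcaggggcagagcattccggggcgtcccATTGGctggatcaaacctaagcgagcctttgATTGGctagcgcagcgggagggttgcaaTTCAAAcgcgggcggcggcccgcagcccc
Cdk1 (chr10:69352913-69353112, - strand): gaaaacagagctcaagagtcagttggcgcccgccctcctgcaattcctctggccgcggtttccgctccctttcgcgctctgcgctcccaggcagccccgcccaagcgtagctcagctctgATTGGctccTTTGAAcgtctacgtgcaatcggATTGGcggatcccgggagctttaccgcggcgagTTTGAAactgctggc

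TTTGAA matches began 23 and 179 bases before the start in Top2a, 29 bases before it in Ube2c, 15 and 71 bases before it in Cdk1 and 98 and 116 bases before it in Mki67. Cks1b and Bub3, which were higher in level, also had both elements in the 200 bases before the start. Ccnb1, which was low, had CCAAT but no TTTGAA there. The use of these elements in these cells was not measured.

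Genes of G1 cyclins and kinases were not low as a list, which is wider than the genes that govern entry into the cycle. The 22 G1 cyclins and kinases had a median percentile of 68.4, 63.1 and 67.6. Of these, 15 (68.2%) lay above the median of every library and 2 (9.09%) below it, against 41.3% and 40.7% of all 8078 entries. Ccng1, a p53-responsive cyclin, was at 46.5, 43 and 45.3 FPKM, and Cdk4, the kinase of D cyclins, at 31.5, 48.3 and 43.2 FPKM. The kinases Cdk2 and Cdk6 were lower. Cdk4 exceeded Cdk2 by 7.05, 10.2 and 8.51-fold and Cdk6 by 7.95, 5.95 and 7.03-fold, pairs picked after their levels had been seen. The D cyclins Ccnd2 and Ccnd1 were at 40.6, 43.6 and 31.6 FPKM and 22.7, 32.7 and 37.3 FPKM, and Ccnd2 was the higher in 2 of 3 libraries. Ccni, cyclin I, and Ccnl1, a cyclin of RNA splicing, were at 37.3, 36.3 and 43.8 FPKM and 47.1, 18.6 and 36.4 FPKM. Cdk16 was at 11, 90.9 and 12.4 FPKM, a mean of 38.1 that rests on library 2.

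Inhibitors of division ranked alike. The list of 28 kinase inhibitors, pocket proteins and other brakes had a median percentile of 72.2, 66 and 64.5. Btg2, an antiproliferative and immediate early gene, led at 104, 67.3 and 62.3 FPKM, then Tob1 of the same family at 48.7, 44.7 and 47.6 FPKM and Foxo1, a factor that growth signals hold out of the nucleus, at 48.5, 45.9 and 46.2 FPKM. The stress genes Gadd45b and Gadd45g were at 30.03, 20.7 and 26.2 FPKM and 23.1, 18.9 and 30.3 FPKM, and Trp53 at 20.7, 21.8 and 27.8 FPKM.

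Of the kinase inhibitors themselves, Cdkn1a, p21, was at 16.5, 16.3 and 16.5 FPKM, the same in all 3 libraries to within an SD of 0.124. Cdkn1b, p27, was at 8.75, 16.7 and 11.9 FPKM and Cdkn1c, p57, at 3.42, 4.96 and 4.56 FPKM, and Cdkn1b exceeded Cdkn1c in all 3 without overlap. The pocket proteins Rbl2 and Rb1, which repress cell cycle genes, were at 18.1, 12.2 and 13.9 FPKM and 13, 11.9 and 10.8 FPKM. Rbl2 exceeded Rbl1, the pocket protein linked to dividing cells, by 4.2, 4.51 and 3.16-fold. Pcna is not analysed here.

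**Figure D4:**
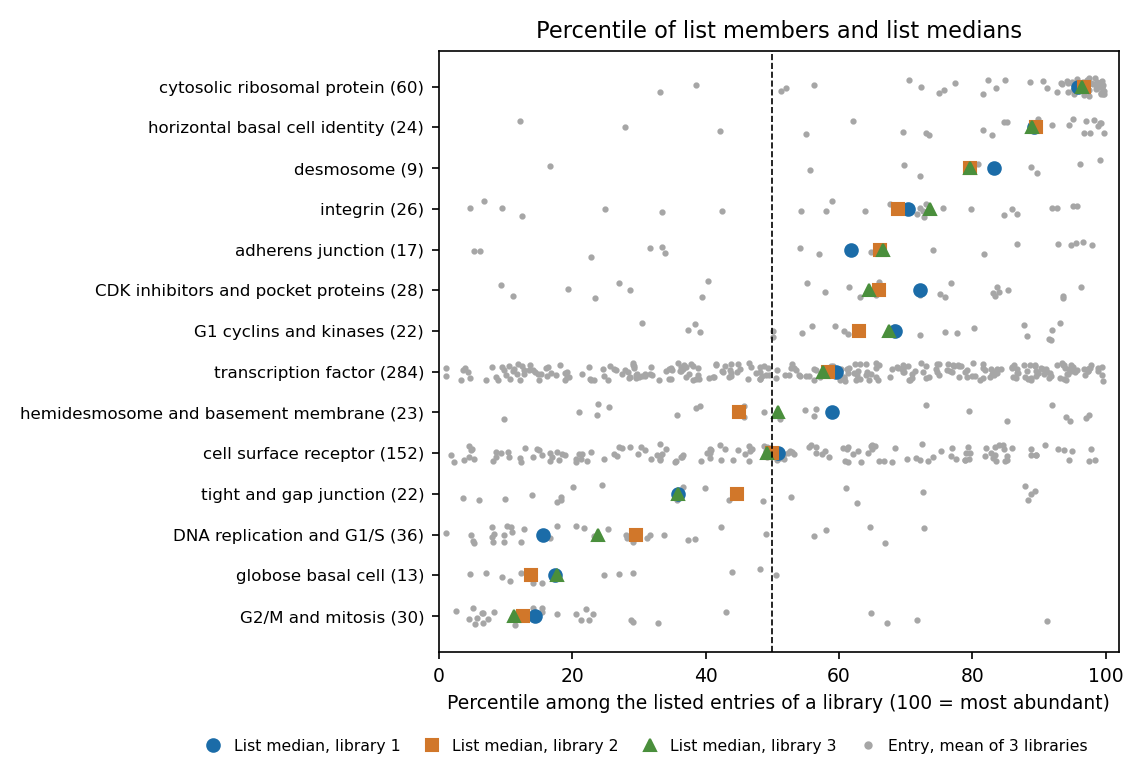
Percentile among the 8078 entries, 100 being the most abundant, for 14 gene lists with the number of entries in brackets. Grey points are entries (mean of 3 libraries), coloured symbols the list median in each library, and the dashed line marks 50. Basal cell identity medians lie at 88.9 to 89.5 and those of the G2 and mitosis list at 11.3 to 14.5, with replication genes and globose basal cell genes also low. Of the lists of other cell types only the globose basal cell list is drawn.

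Transcripts of other mucosal cells were present at levels from the very top of the ranking to its bottom. The lists of 17 other cell types held 150 different entries, which took 5.86 ± 0.479% of the summed level, or 7.74% with Mir703 left out of the sum. Of the 150, 3 are also on the basal cell identity list, Sox9, Ngfr and the joined keratin entry, and the other 147 took 5.6 ± 0.465%. The basal cell identity list summed to 1773, 2720.2 and 1915 FPKM. In a bulk library, a few cells that make much of an RNA cannot be told from many cells that make little of it, so these sums are not cell numbers.

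Respiratory secretory genes had the largest sum, 7315, 7880.2 and 5874 FPKM over 11 entries, nearly all of it from Plunc, Reg3g and Cyp2f2. Agr2, needed to fold mucins, was next at 101, 105 and 93.3 FPKM. Of the Bowman gland list of 9 entries, summed at 1968, 1407 and 1433 FPKM, Reg3g again made up most. Ltf, lactoferrin, was at 59.1, 21.4 and 47.3 FPKM, and the lipocalins Lcn3 and Lcn11 at 85.2, 8.36 and 25.2 FPKM and 28.4, 13.8 and 37.1 FPKM. Lcn3 and Ltf were highest in library 1, where the sum of the gland list was highest too.

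Sustentacular cells, which support the neurons and detoxify, gave a sum of 783, 1518 and 1472 FPKM over 12 entries, of which Gpx6 was the largest. Krt18, a keratin of such columnar cells and also on the microvillous cell list, was at 133, 160.0 and 173 FPKM, and Cyp1a2, a cytochrome P450, at 35.3, 59.2 and 58.1 FPKM. Hes1 is on this list as well. All of Gpx6, Krt18 and Cyp1a2 were lowest in library 1. The median percentile of the list was 88.6, 84.9 and 88.6, and Cyp2g1 is not analysed here.

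Olfactory neuron transcripts were lower in rank and headed by few genes. The mature neuron list of 18 entries summed to 728, 889 and 1112 FPKM. Stoml3, a stomatin protein of olfactory cilia, was at 316, 370.5 and 561 FPKM and Gng13, a G protein subunit of olfactory signalling, at 60.8, 139 and 126 FPKM. Ric8b, which assists the olfactory G protein, was at 28.3, 22.8 and 23.6 FPKM. Stoml3 and Gng13 were lowest in library 1, and Omp is not analysed here.

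For immature neurons the sum was 165, 228 and 253 FPKM over 18 entries. Stmn1, a regulator of microtubules, was at 22.6, 42.1 and 50.9 FPKM, Hdac2, a histone deacetylase, at 34.8, 39.6 and 39.1 FPKM, and the neuronal factors Lhx2 and Ebf3 at 13.2, 19.7 and 20.6 FPKM and 13.1, 15.8 and 24.4 FPKM. Library 1 was the lowest library for 14 of the 18 entries, against 42.1% of all entries.

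Globose basal cell genes were the lowest of the epithelial lists. Their 13 entries summed to 44.1, 50.7 and 52.8 FPKM with a median percentile of 17.4, 13.8 and 17.7. Of the 13, 10 (76.9%) lay below the median of every library, against 40.7% of all 8078 entries. Hes6 was at 5.26, 10.5 and 9.06 FPKM, Sox11 at 7.73, 7.84 and 7.11 FPKM and Ezh2, a Polycomb methyltransferase, at 7.72, 6.84 and 5.94 FPKM. Sox2 is not analysed here.

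Ciliated cells of the respiratory lining summed to 113, 136 and 231 FPKM over 15 entries. Foxj1, the master factor of motile cilia, was at 9.7, 7.66 and 20.6 FPKM. Ccdc153, Dynlrb2, Tmem212 and Tppp3, of cilia and their microtubules, were at 12.8, 19.7 and 46.7, at 12, 20.5 and 28.5, at 12.9, 13 and 27.7 and at 9.52, 13.4 and 28.3 FPKM. All were highest in library 3, which was the highest library for 12 of the 15 entries against 37.8% of all entries.

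Microvillous and tuft cell genes summed to 232, 267 and 303 FPKM over 7 entries, mostly Krt18 and Coch, the latter at 73.9, 81.2 and 97.9 FPKM. Atp6v1b1, a proton pump subunit of ion-transporting cells, was at 12.4, 12.8 and 12.9 FPKM and Cftr, the chloride channel, at 4.35, 3.17 and 7.85 FPKM.

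Connective tissue of the lamina propria lies beneath the basal cells. The fibroblast list of 13 entries summed to 386, 524 and 439.8 FPKM. Dcn, decorin, was at 116, 162 and 145 FPKM, Ogn, osteoglycin, at 92.1, 83.4 and 102 FPKM and Cxcl12, the chemokine that Cxcr7 binds, at 24, 24.3 and 20.01 FPKM. Library 2 was the highest for 8 of the 13, against 29.9% of all entries. Col1a1, a chain of type I collagen looked at after its values were seen, was at 5.52, 26.2 and 6.76 FPKM, so Dcn exceeded it by 21, 6.2 and 21.4-fold.

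Lists of glia, vessels and muscle had few entries, which is not the same as low levels. An entry existed for 6 of 19 glial symbols, 1 of 20 endothelial symbols and 3 of 15 symbols of pericytes and smooth muscle. Of 6 entries on the list of olfactory ensheathing and Schwann glia, Apoe, a lipid carrier that macrophages also make, was at 276, 402 and 419 FPKM, far above the others. Aldoc was at 19.8, 24.2 and 22.2 FPKM and Erbb3, the neuregulin receptor, at 11.6, 2.96 and 2.37 FPKM. Rgs5, a marker of pericytes, was at 81.2, 84.7 and 46.5 FPKM, Acta2, smooth muscle actin, at 21, 6.08 and 19.1 FPKM and Myl9 at 8.44, 6.52 and 11.3 FPKM. The endothelial list had 1 entry, joined from 4 Ly6 genes, at 73.6, 65 and 82.9 FPKM, and Pecam1 is not analysed here.

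Blood cell genes ranged from the top of the ranking to its bottom. The macrophage and dendritic cell list of 11 entries summed to 388, 328 and 549.7 FPKM. The joined entry Lyz1 and Lyz2, lysozymes, was at 258, 165 and 285 FPKM, Cd74, the chaperone of MHC class II, at 68, 76.9 and 162 FPKM, and the class II genes H2-Aa and H2-Ab1 at 25.4, 33.2 and 43.6 FPKM and 9.28, 13.3 and 19.8 FPKM. Library 3 was the highest for 8 of the 11, against 37.8% of all entries. Ptprc, CD45, the surface protein of all white blood cells, was at 1.06, 0.80 and 3.52 FPKM and near the bottom in libraries 1 and 2.

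The neutrophil and mast cell list summed to 94.1, 80.5 and 106 FPKM over 5 entries, with G0s2 at 21.7, 20.4 and 28.8 FPKM, S100a8 at 6.34, 19.1 and 18.2 FPKM and S100a9 at 6.87, 17.1 and 10.9 FPKM. Of the 22 symbols on the lymphocyte list 1 had an entry, the granzyme Gzma, at 0.0312, 0.152 and 0.0277 FPKM. Of the erythroid list of 4 entries, the joined haemoglobin entry Hbb-b1 and Hbb-b2 was at 2.59, 18.8 and 2.9 FPKM, with library 2 highest, Bpgm at 8.25, 14.4 and 9.73 FPKM and Alas2 at 1.9, 2.56 and 4.76 FPKM.

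Genes of squamous keratinocytes, to which keratin 5 basal cells of skin give rise, were low apart from the joined keratin entry. Sprr1a, a precursor of the cornified envelope, was at 4.78, 6.31 and 7.0 FPKM, Dmkn at 2.21, 4.08 and 4.72 FPKM and Sbsn at 3.14, 2.97 and 0.001 FPKM. All 3 means lay below the median of the libraries.

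**Figure D5:**
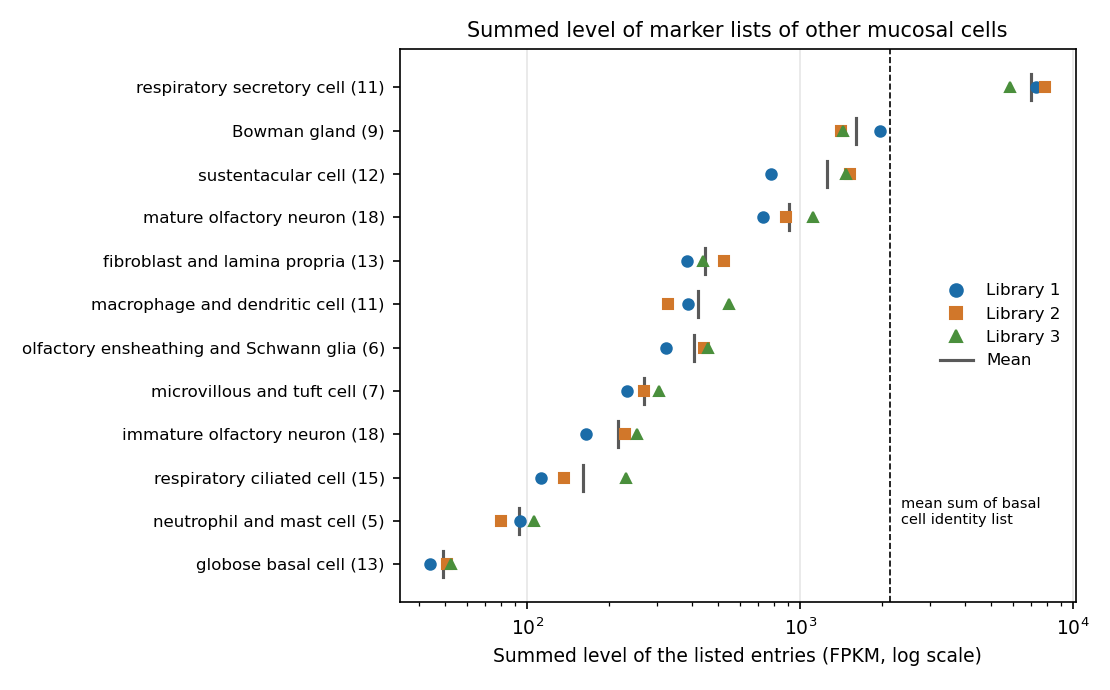
Summed level in FPKM (log axis) of the entries on 12 marker lists of other mucosal cells, with the number of entries in brackets. Points are the 3 uninjured libraries, bars their mean, and the dashed line the mean sum of the 24 basal cell identity entries (2136 FPKM). The respiratory secretory list exceeds that line in every library and the globose basal cell list is lowest, at 44.1 to 52.8 FPKM.

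The part that other cells, or RNA set free from them, had in these levels was not tested. The high rank of Trp63 and the joined keratins, the low rank of globose basal cell and mitotic genes, and the high rank of Plunc and Reg3g were measured in the same 3 pools.

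The libraries differed from one another in ways that touch these values. Entries of at least 10 FPKM in mean numbered 3258, and in 8, 18 and 19 of them library 1, 2 or 3 was at least 3 times both others. In 24, 9 and 10 of them both others were at least 3 times library 1, 2 or 3. The entries with the largest coefficient of variation among those of at least 50 FPKM were 10 in number. Besides Mir1931, Mir1-2as, Mir1190 and Snora17 they were the joined entry Mir1940 and Snora47 at 0.001, 1.46 and 251 FPKM, Snhg9 at 7.0, 29.5 and 129 FPKM, Emg1 at 14, 148 and 23.5 FPKM, Ubl5 at 12.7, 128 and 18.8 FPKM, Cox6c at 61.9, 469 and 80.8 FPKM and the joined entry Gm12166 and Sft2d1 at 16.4, 219.9 and 7.2 FPKM. The last 4 of these were high in library 2 alone.

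The library in which an entry was highest varied with transcript length. Lengths from the GENCODE M21 annotation were found for 98.1% of entries. Each is the median over a gene's protein-coding transcripts, or over all its transcripts where it has none. Short transcript models count too, so a gene's main transcript can be longer, as with 348 bases for Gja1 and 606 for Malat1. Among entries of 10 to 100 FPKM, library 1 was the highest for 20.8% of the 130 with transcripts under 600 bases and for 50.8% of the 465 with transcripts of 4000 bases or more. Among the 38 entries of at least 100 FPKM under 600 bases it was the highest for 2.63%. Ribosomal protein genes, with a median transcript length of 678 bases, were lowest in library 1 in 53 of 60 entries, against 42.1% of all entries, while their median percentile was 95.8, 96.7 and 96.5. Sod1, Rplp1, Rps9 and Fxyd3, which were lowest in library 1, belong beside this trend, and its part in their values was not tested.

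The labels give no sex, so sex-linked genes were read as a property of the pools. Xist, the RNA of the inactive X chromosome, was at 27.4, 33.8 and 27 FPKM. The Y-linked genes Eif2s3y and Ddx3y were at 18.8, 2.73 and 2.55 FPKM and 6.67, 1.21 and 1.55 FPKM, and Uty and Kdm5d at 3.71, 0.439 and 1.62 FPKM and 3.33, 0.656 and 0.631 FPKM. All 4 Y-linked genes were highest in library 1, whereas Xist differed little. Library 1 was also the one with more immediate early entries at their highest and lower neuronal sums, and the relation of these to the makeup of the pool was not tested.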

How the data were processed

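RNA of cells sorted on TdTomato was sequenced from 3 uninjured and 3 injured pools of mouse olfactory epithelium, and only the 3 uninjured libraries were used. The submitters' processing notes name FastQC, TopHat, Cuffdiff and mm9, a mouse genome build, without versions, roles or order. The values the authors deposited, 1 per entry and library, were read as FPKM, since Cuffdiff reports FPKM and the column of gene names is headed as in its output. What annotation, scaling between libraries or filter lies behind the 8078 entries with a value, beside 4108 blank rows, is not given in the sources used here. Symbols are joined in 131 entries, whose level was ascribed to no single gene and which stood once in a list.

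The depth of the libraries could not be recovered: at most 2.94% of the ratios of 1021 low entries between libraries lay within 1% of one another. Counting intervals were therefore left out. No 2 libraries held identical values.

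With 1 group there was no test. Ranks, percentiles, list medians and sums were computed within each library with Python 3.11.15, numpy 2.4.6 and pandas 2.3.3, then given as mean and SD over 3. The percentile code was checked on simulated data. The members and the 41 gene lists were chosen with earlier results of these data known.

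Genes were named by rule: the 25 highest means; the 14 highest transcription factors and 14 receptors; 5 per adhesion list; 6 per cell cycle list with 13 fixed genes; the basal cell list; 4 per list of another cell type with 8 fixed genes; 4 per pathway; the sex-linked list; and the 10 largest coefficients of variation at a mean of at least 50 FPKM. Some genes that these rules name are not reported here. Family pairs and any gene said so were chosen after values were seen. Lengths came from GENCODE M21, sequences from RefSeq on GRCm38.p6, and no coordinates were converted. Figures were drawn with matplotlib 3.10.9. Alternatives left out joined entries, Mir703, entries at the lowest value, entries under a mean of 1 FPKM, or each library. For list medians, Mir703 stayed among the ranked entries.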

Additional observations from a re-analysis of the deposited data

How the results depend on the processing

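Few list medians and shares moved by more than the SD between libraries. Without Mir703 the share of the 10 most abundant entries was 10.1% in place of 31.5%, and the share of the lists of other mucosal cells was 7.74% in place of 5.86%. Leaving out Mir703 takes it from the 10 entries and from the sum in the first share, and from the sum alone in the second. The median percentile of the basal cell identity list, 89.2, was 88.6 without joined entries, 88.9 among entries with a mean of at least 1 FPKM and 88.8 among entries above the lowest value in all 3 libraries. The receptor list, at 50.02, was at 49.0 among the latter. These filters change which entries are ranked. The other 66 recomputed list medians and shares stayed within 1 SD, which 36 of them, with a library left out or the median over libraries in place of the mean, could not leave by construction. List medians labelled as without Mir703 could not move either, because Mir703 stayed among the ranked entries. Single genes were less stable: of 211 named entries, 26 had a mean that moved by over 1.5 times without 1 library, 7 without library 1, 13 without library 2 and 6 without library 3. Mir1931 fell from a mean of 695 to 0.607 FPKM without library 3, Perp from 392 to 154 FPKM and Cdk16 from 38.1 to 11.7 FPKM without library 2. Leaving out each library in turn gave 31.0% to 32.3% for the 10 most abundant entries, 89.1 to 89.4 for the basal cell list, 19.8 to 26.8 for DNA replication, 12.0 to 13.5 for G2 and mitosis and 5.68% to 6.13% for other mucosal cells. No paired analysis was possible because there is 1 group and no comparison between groups. Unknown depth limits what low values can show.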

Other observations

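Histone and keratin genes outside the lists above were read in the same way, as values. The replacement histones H3f3a and H3f3b, made outside S phase, stood at 179.8, 179.5 and 190.4 FPKM and 238, 150.2 and 168 FPKM. The replication-linked histone genes, whose messages mostly lack a polyA tail, were far lower, for example Hist1h1b at 1.99, 4.83 and 2.36 FPKM and Hist1h3b at 0.472, 0.001 and 4.79 FPKM. Over all 26 histone entries the median percentile was 21.2, 58.3 and 36.7, and 17 of the 26 were highest in library 2, against 29.9% of all entries. The keratins Krt23 and Krt7 stood at 41, 29.8 and 36.1 FPKM and 15.2, 24.3 and 31.4 FPKM, both well below the joined type I keratin entry and above the median of every library. These genes were chosen after their values were seen.

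Among immediate early genes not described above, Dusp1, a phosphatase that shuts off MAP kinases, was at 263, 188 and 179 FPKM, and Klf6 and Klf4, zinc finger factors, at 92.5, 53.8 and 46.9 FPKM and 40.4, 22.6 and 21.9 FPKM. All 3 were highest in library 1, as Fos was, and were chosen after their values were seen.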
